A study of Caenorhabditis elegans with 12 samples.

Results

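The Hedgehog-related and patched-related genes of Caenorhabditis elegans were followed in ribosome footprints from whole mid-L4 larvae. Members were taken by name: every gene called wrt, grd, grl, hog, qua, ptr, ptc or ptd followed by a number. This gave 88 of the 46711 genes listed, and 70 of them had 30 or more counts over the 12 libraries and were used. These were 9 wrt, 13 grd, 20 grl and 22 ptr genes, 3 ptc genes, and hog-1, qua-1 and ptd-2. The 18 members below the minimum were grd-7, grd-8, grd-9, grd-17, grl-3, grl-9, grl-11, grl-13, grl-17, grl-19, grl-24, grl-26, grl-28, grl-29, grl-31, grl-32, ptr-9 and wrt-7.

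The 12 libraries came from 4 strains with 3 replicates each, lettered A to C, all grown at 20 °C and harvested 45 h after feeding. The U13A mutant was lin-41(tn1541ma480);let-7(ma432), which the submitters describe as U13A with lin-41 downstream excluded. Its control, the U13A control, was lin-41(tn1541). The U18A mutant was maIs105;let-7(ma435), and the U18A control was maIs105. maIs105 is a reporter transgene for the adult collagen col-19, and both strains of the U18A pair carry it. let-7 is a microRNA that times the passage from the last larval stage to the adult. The U13A mutant and its control also carry different lin-41 alleles, so effects of let-7 and of lin-41 cannot be told apart there.

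In flies and vertebrates, Hedgehog is a secreted protein whose C-terminal Hog domain cuts the precursor and attaches cholesterol, and Patched is its membrane receptor. C. elegans has no clear Hedgehog and no Smoothened. It has instead large families of secreted Hedgehog-related proteins, the warthogs (wrt), groundhogs (grd), ground-like proteins (grl), quahog (qua-1) and hog-1. It also has homologues of Patched (ptc) and a large family of patched-related membrane proteins with a sterol-sensing domain (ptr and ptd). Many of these genes act in the epidermis and its cuticle, in molting, in growth and in the lining of glial and excretory tubes.

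Total counts ranged from 8405704 to 44950649 per library, and every U18A mutant library was shallower than every U18A control library, while every U13A mutant library was deeper than every U13A control library. The altered gene could not be checked, because let-7 makes no protein and had 0 counts in all 12 libraries. Mutant and control were compared within each pair by edgeR's quasi-likelihood test over all genes, with Benjamini-Hochberg adjustment and calls at an adjusted p under 0.05. Nothing in the labels says that replicates came from separate cultures, so p-values measure the spread between these samples. A footprint count joins how much mRNA there is with how often it is translated, and in whole animals fewer cells of a type and less RNA per cell cannot be told apart.

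Levels are given in CPM, the usual count per library size, on 1 scale for the 12 libraries, and between genes in CPM per kb of coding length, as the mean of the 4 groups. The secreted families spanned the widest range. The ground-like gene grl-16 was highest at 477 CPM per kb, followed by grd-5 at 448, grd-14 at 303, grl-4 at 133 and grl-21 at 95.7. At the other end the grl family reached down to 0.134 and the grd family to 0.176 CPM per kb. The 9 warthogs lay between 3.15 and 66.0 CPM per kb, with wrt-4 highest. The highest receptor-like genes were below the highest secreted ones: ptc-1 had 30.9, ptc-3 15.1, and the ptr genes 0.167 to 24.98 CPM per kb with ptr-21 at the top. The family medians had another order, with 1.46 CPM per kb for grl, 3.18 for grd, 5.34 for ptr and 12.1 for wrt. ptd-2 was lowest of all members with a coding length, at 0.0702 CPM per kb and 1 to 12 counts per library, and was tested in no comparison. Its counts were 2, 3 and 1 in U13A mutants, against 4, 1 and 3 in U13A controls, and 2, 3 and 3 in U18A mutants, against 4, 12 and 6 in U18A controls.

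**Figure D1:**
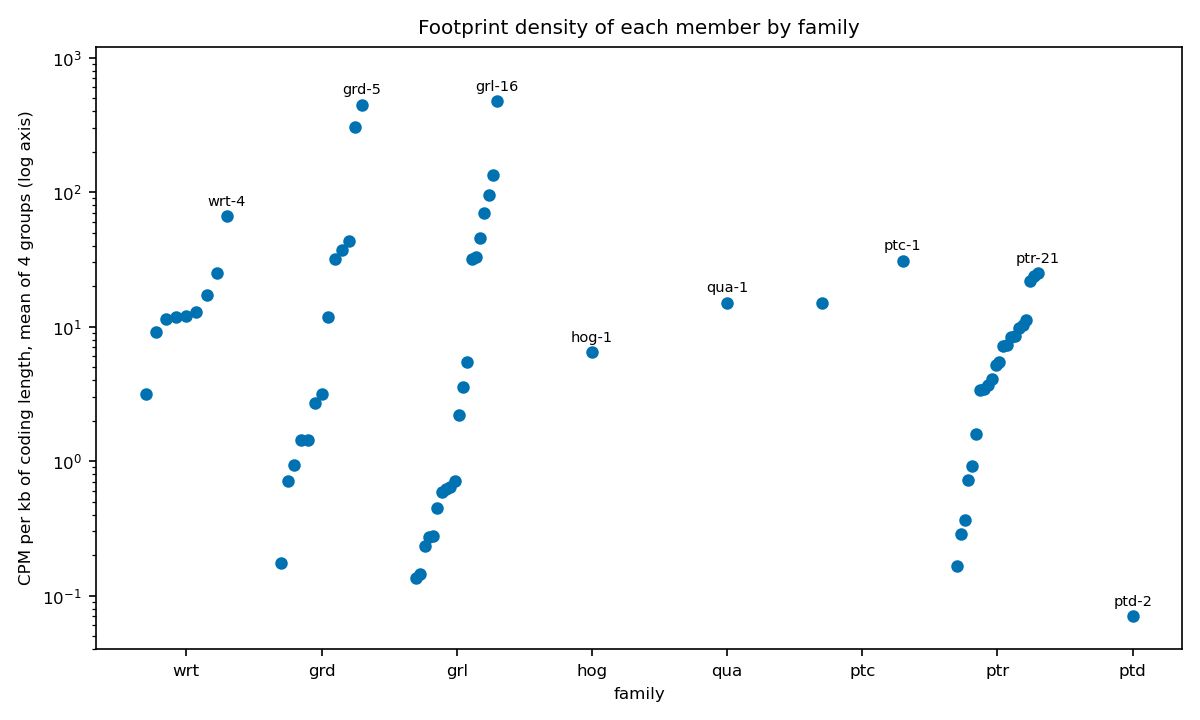
Footprint density of each member with a coding length, in CPM per kb of coding sequence on a log axis, by family, each point 1 gene averaged over the 4 groups. The grl and grd families run over the widest range, up to 477 for grl-16 and 448 for grd-5, while the highest ptr gene, ptr-21, is at 24.98.

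Footprints were concentrated in few members. Pooled over the 12 libraries, grl-16 alone gave 28.7% of all member counts, and grl-16, grd-14, grd-5, wrt-4 and ptc-1 together 51.1%. Deeper libraries weigh more in these shares. By library, grl-16 gave from 19.4% of member counts in U13A mutant replicate A to 32.2% in U13A control replicate B. The 70 members together took 0.221 to 0.247% of the library in the U18A mutant, against 0.318 to 0.366% in the U18A control. They took 0.147 to 0.176% in the U13A mutant, against 0.170 to 0.199% in the U13A control. The ranges of mutant and control did not overlap in the U18A pair and did overlap in the U13A pair. Without grl-16 the mutant's mean share was 0.703 of its control's in the U18A pair and 0.948 in the U13A pair, against 0.684 and 0.847 with it.

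In the U18A mutant the members were lower as a set, though not in every family. Of the 70 members used, 58 passed the filter on low counts and were tested. Of these 31 fell, by 0.34 to 1.34 on the log2 scale, and 4 rose. That is 53.4% of members lower and 6.90% higher, where 6.75% of all 13614 genes tested were lower and 4.11% higher. The median log2 fold change was -0.57 for the members and -0.005 for all genes tested. The falls took in 18 of the 34 secreted members tested and 13 of the 24 patched-related ones. The 3 ptc genes had a median of 0.32, with 2 higher and 1 lower, and 23 of the 58 members were not called. The higher ptc genes were ptc-1 and ptc-2, and ptc-2 cannot be separated from reads of ptc-1, as given below. It is also among the 4 members that rose.

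**Figure D2:**
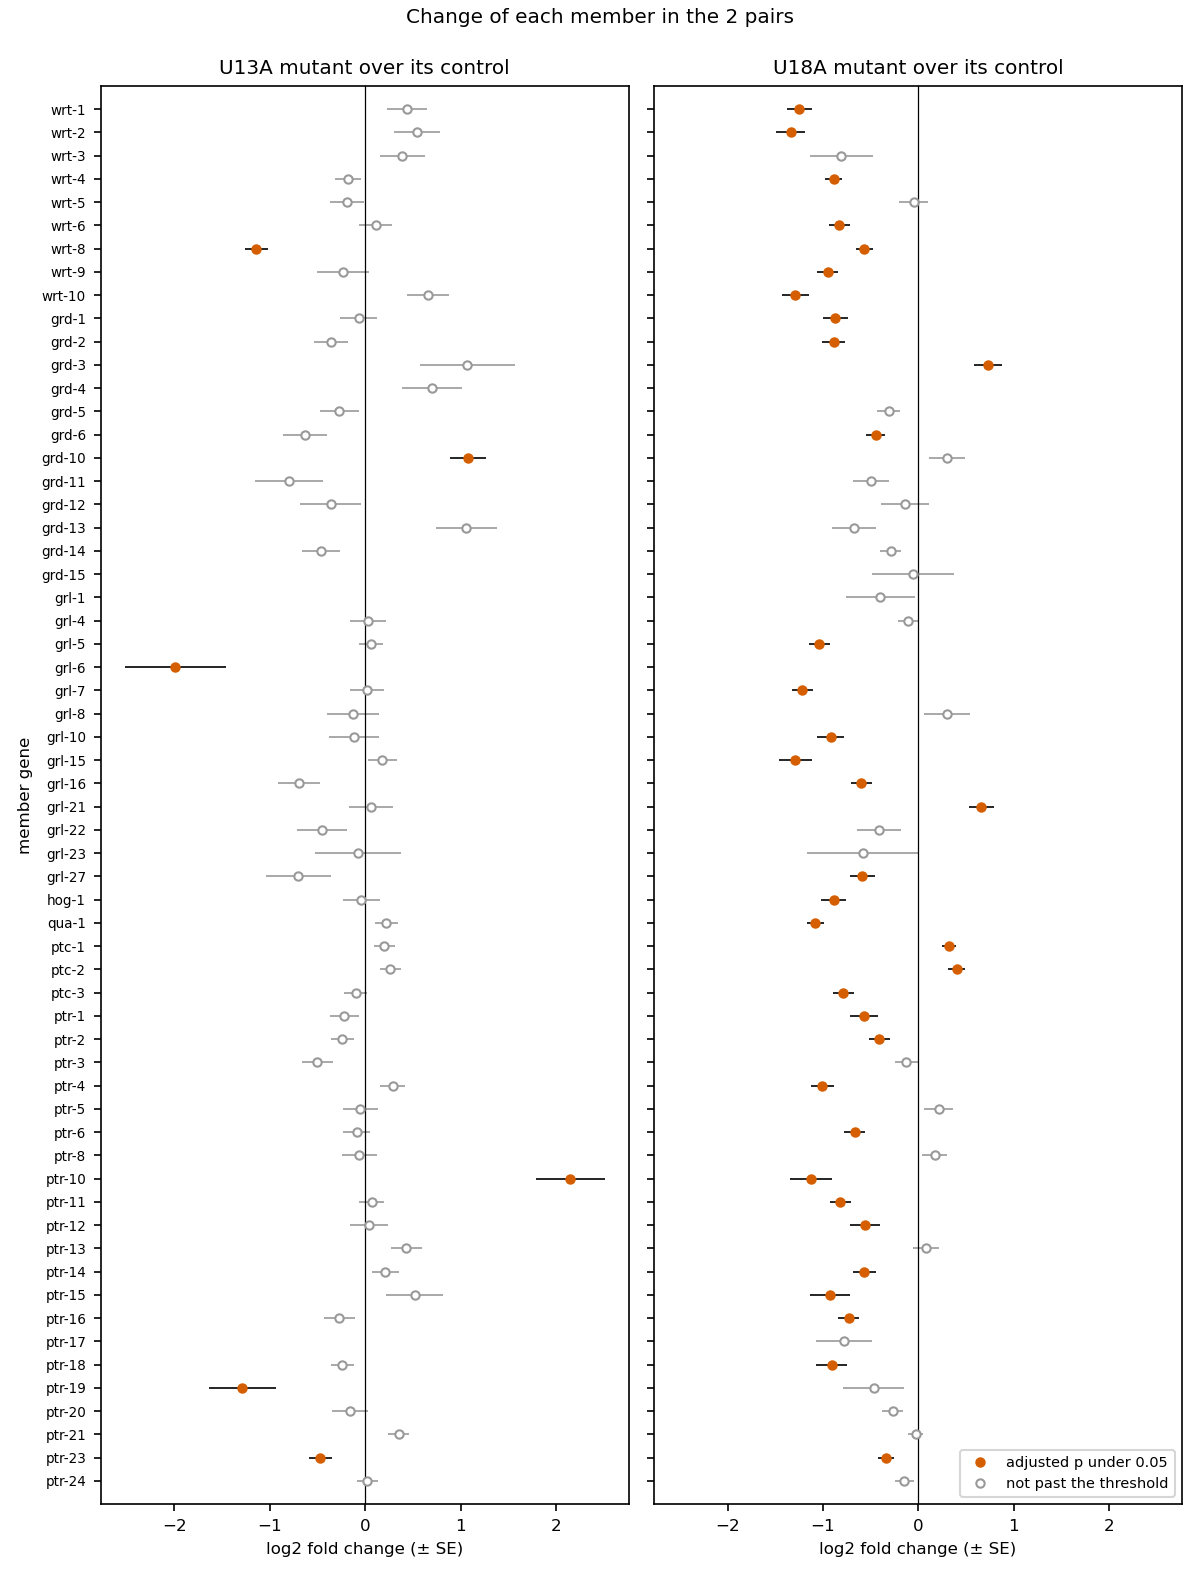
Log2 fold change of each tested member, mutant over its own control, with its standard error, in the U13A pair and the U18A pair, filled where the adjusted p was under 0.05. In the U18A pair 31 members are called lower and 4 higher, and in the U13A pair 4 lower and 2 higher.

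Among the warthogs, 7 of 9 fell in the U18A mutant and none rose. wrt-2, on chromosome X at positions 3092395 to 3094349 and known as a source of seam-cell reporters, had 11.5, 11.4 and 9.67 CPM in U18A mutant replicates A to C, against 34.1, 24.2 and 23.6 CPM in U18A control replicates A to C. Every mutant library was below every control library, with the highest value in control replicate A. The log2 fold change was -1.34 ± 0.15 (SE, n = 3 each; adjusted p = 7.61e-05).

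wrt-1 and wrt-10 lie on chromosome II, tail to tail with 16 bp between them. wrt-1 (7530996 to 7533246) had 15.5, 15.5 and 16.9 CPM in U18A mutants, against 46.9, 34.3 and 32.9 CPM in U18A controls. wrt-10 (7533262 to 7534563), which acts from the hypodermis in a signal that limits reproductive ageing, had 18.1, 15.3 and 15.7 CPM in U18A mutants, against 49.9, 36.5 and 33.1 CPM in U18A controls. For both, the 3 mutant libraries lay close together and below every control library, and control replicate A was the highest. Their log2 fold changes were -1.25 ± 0.13 and -1.29 ± 0.14 (SE; adjusted p = 6.19e-05 and 7.53e-05).

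wrt-4, wrt-6, wrt-8 and wrt-9 fell as well. wrt-4, the warthog with most footprints, averaged 129 ± 7.34 CPM in the U18A mutant and 239 ± 26.8 CPM in the U18A control (SD, n = 3 each). wrt-6 averaged 36.2 ± 0.448 CPM in the U18A mutant and 64.2 ± 10.9 CPM in the U18A control. wrt-9 averaged 18.5 ± 0.484 CPM in the U18A mutant and 35.7 ± 4.97 CPM in the U18A control. The log2 fold changes of these 3 were -0.89, -0.83 and -0.95. wrt-3 had a log2 fold change of -0.81 ± 0.33 and wrt-5 of -0.05 ± 0.15, and neither passed the test (adjusted p = 0.146 and 0.896).

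The quahog gene qua-1, which is needed for molting, lies on chromosome II at 8198803 to 8204004. It had 47.8, 47.2 and 45.9 CPM in U18A mutants, against 114, 89.2 and 93.5 CPM in U18A controls. The mutant libraries were nearly equal and all below the controls, with a log2 fold change of -1.08 ± 0.09 (SE; adjusted p = 4.35e-05). hog-1, on chromosome X at 5851953 to 5854263, had 4.301, 4.18 and 4.06 CPM in U18A mutants, against 8.42, 7.43 and 7.25 CPM in U18A controls. Here too no libraries overlapped, and the log2 fold change was -0.89 ± 0.13 (adjusted p = 5.90e-04).

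The members known to carry a Hog domain were counted together across families, as a grouping made after the values were seen: wrt-1, wrt-4, wrt-6, wrt-8, grd-1, grd-2, grd-11, hog-1 and qua-1. In the U18A mutant 8 of these 9 fell, with a median log2 fold change of -0.89. In the same pair 53.4% of all members tested and 6.75% of all genes tested fell. The ninth, grd-11, was at -0.50 ± 0.19 there and did not pass (adjusted p = 0.116). In the U13A mutant 1 of the 9 fell and none rose, with a median of -0.07. Warthogs outside the grouping fell in the U18A pair too, wrt-2 at -1.34, wrt-10 at -1.29 and wrt-9 at -0.95, while wrt-3 and wrt-5 did not pass. A grouping made after the values were seen cannot show that the falls go with the Hog domain.

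The groundhogs moved less uniformly. Of 11 tested in the U18A pair, 3 fell (grd-1, grd-2 and grd-6), 1 rose (grd-3) and 7 did not pass. grd-2, on chromosome V at 20609794 to 20613929, had 10.53, 8.88 and 9.44 CPM in U18A mutants, against 19.7, 17.5 and 15.8 CPM in U18A controls. grd-1 averaged 8.61 ± 1.02 CPM in the U18A mutant and 15.6 ± 1.88 CPM in the U18A control (SD, n = 3 each). Mutant and control libraries did not overlap for either gene, and the log2 fold changes were -0.89 ± 0.12 for grd-2 and -0.87 ± 0.13 for grd-1 (SE; adjusted p = 2.15e-04 and 4.28e-04).

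grd-3 stands in a tandem group of 3 groundhogs on chromosome IV, 148 bp after grd-13 and 602 bp before grd-10, all on the same strand. It had 15.5, 14.9 and 10.9 CPM in U18A mutants, against 9.72, 7.12 and 7.87 CPM in U18A controls. The mutant libraries were all higher, by 0.73 ± 0.15 on the log2 scale (adjusted p = 0.00557), but without U18A mutant replicate B the adjusted p was 0.0505 and with all 12 libraries in 1 fit 0.307. Its neighbours did not pass in this pair: grd-13 had a log2 fold change of -0.68 ± 0.23 (adjusted p = 0.0861) and grd-10 of 0.30 ± 0.19 (adjusted p = 0.411). The most abundant groundhogs, grd-5 and grd-14, were at -0.31 and -0.29 without passing (adjusted p = 0.134 and 0.101).

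Of the 12 ground-like genes tested in the U18A pair, 6 fell and 1 rose. grl-15, on chromosome III at 12232632 to 12236014, had 9.51, 12.7 and 15.5 CPM in U18A mutants, against 39.0, 29.7 and 26.0 CPM in U18A controls. All mutant libraries lay below the lowest control, and the log2 fold change was -1.29 ± 0.17 (SE; adjusted p = 1.88e-04). grl-7, whose product is found in the apical matrix of epithelia, averaged 41.7 ± 4.40 CPM in the U18A mutant and 97.3 ± 15.2 CPM in the U18A control (SD, n = 3 each; log2 fold change -1.22). grl-5 averaged 42.0 ± 3.12 CPM in the U18A mutant and 85.7 ± 14.9 CPM in the U18A control (log2 fold change -1.04). grl-10, grl-16 and grl-27 were the other members to fall. grl-16, with most footprints, averaged 687 ± 137 CPM in the U18A mutant and 1031 ± 66.0 CPM in the U18A control (log2 fold change -0.60). With all 12 libraries in 1 fit its adjusted p was 0.118.

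grl-21, which has been linked with ptr-24 in the control of lipid metabolism, was the ground-like gene that rose. It lies on chromosome IV at 10737474 to 10738191 and had 80.5, 78.1 and 56.6 CPM in U18A mutants, against 49.7, 46.2 and 38.9 CPM in U18A controls. Its libraries did not overlap, and the log2 fold change was 0.66 ± 0.13 (adjusted p = 0.00297), or 0.67 with an adjusted p of 0.0781 when all 12 libraries were fitted together. ptr-24 had a log2 fold change of -0.15 ± 0.10 and did not pass (adjusted p = 0.451).

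The Patched homologues went in opposite directions. ptc-1, which is required for cytokinesis in the germline, lies on chromosome II at 7893222 to 7900515 and had 170, 163 and 169 CPM in U18A mutants, against 135, 135 and 130 CPM in U18A controls. The replicates of each group were tight and apart, and the gene rose by 0.32 ± 0.07 on the log2 scale (SE; adjusted p = 0.005). ptc-3, the essential Patched homologue of epidermis and gut, on chromosome II at 2845412 to 2852593, had 55.01, 52.2 and 62.7 CPM in U18A mutants, against 111, 99.8 and 83.3 CPM in U18A controls. It fell by 0.79 ± 0.11 on the log2 scale, with no overlap (adjusted p = 2.34e-04). The counts listed for ptc-2 were 0.261 to 0.315 of those of ptc-1 in every one of the 12 libraries. ptc-2 is annotated in RefSeq as a pseudogene, so its call (log2 fold change 0.40) cannot be separated from reads of ptc-1 and is uncertain.

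Of the 21 patched-related ptr genes tested in the U18A pair, 12 fell and none rose. ptr-10, used as a marker of glia, lies on chromosome I at 5662143 to 5667160 and had 1.47, 1.97 and 2.00 CPM in U18A mutants, against 5.10, 3.35 and 4.03 CPM in U18A controls. Its libraries were well apart, with a log2 fold change of -1.13 ± 0.22 (SE; adjusted p = 0.00363). ptr-4, needed to clear the precuticle in molting, averaged 29.4 ± 4.08 CPM in the U18A mutant and 59.6 ± 9.84 CPM in the U18A control (SD, n = 3 each; log2 fold change -1.01). ptr-18, reported to clear GRL-7 from the epidermis, averaged 25.6 ± 8.53 CPM in the U18A mutant and 49.1 ± 4.00 CPM in the U18A control (log2 fold change -0.91), with U18A mutant replicate C the highest of the mutants at 35.4 CPM. With no filter on low counts the adjusted p of ptr-18 was 0.0882. ptr-15 averaged 1.71 ± 0.419 CPM in the U18A mutant and 3.42 ± 0.403 CPM in the U18A control (log2 fold change -0.93).

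Several falls were lost when single libraries were left out. ptr-23, on chromosome I at 14906792 to 14913083, had 72.3, 67.9 and 74.2 CPM in U18A mutants, against 97.9, 89.9 and 83.3 CPM in U18A controls. The libraries did not overlap (log2 fold change -0.34 ± 0.08, adjusted p = 0.0114), yet without U18A mutant replicate B the adjusted p was 0.101. Without that same library the falls of grd-6, grl-27, ptr-1, ptr-2, ptr-12, ptr-14 and ptr-15 were also lost, with adjusted p from 0.0514 for ptr-15 to 0.216 for ptr-12. ptr-1, ptr-2 and ptr-12 were lost too without U18A control replicate A (adjusted p = 0.0833, 0.0951 and 0.125), ptr-1 and ptr-2 without U18A mutant replicate A (0.0896 and 0.101), ptr-2 and ptr-12 without U18A control replicate B (0.0622 and 0.107), and ptr-12 without U18A mutant replicate C (0.0871). ptr-6, ptr-11 and ptr-16 complete the 12 that fell. With all 12 libraries in 1 fit, grd-6, grl-27 and ptr-12 did not pass either (adjusted p = 0.251, 0.0818 and 0.135).

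In the U13A mutant few members passed the test. Of 57 tested, 2 rose (grd-10 and ptr-10) and 4 fell (wrt-8, grl-6, ptr-19 and ptr-23). These are 3.51% and 7.02% of the members tested, where 3.07% of all 12874 genes tested were higher and 2.57% lower. The median log2 fold change was -0.06 for the members and -0.004 for all genes tested, with 26 members above 0 and 31 below.

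wrt-8, a warthog with a Hog domain on chromosome V at 15342054 to 15344581, had 10.99, 10.8 and 13.3 CPM in U13A mutants, against 26.2, 24.8 and 25.5 CPM in U13A controls. Every mutant library was at about the same low level, and the gene fell by 1.14 ± 0.12 on the log2 scale (SE; adjusted p = 1.36e-04). It also had 16.9, 14.5 and 14.9 CPM in U18A mutants, against 22.2, 23.2 and 22.5 CPM in U18A controls, again without overlap, and fell there by 0.57 ± 0.09 (adjusted p = 9.31e-04). In both pairs its call held under each alternative tried.

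ptr-10 rose in the U13A mutant. It had 3.81, 2.39 and 3.23 CPM in U13A mutants, against 1.08, 0.811 and 0.294 CPM in U13A controls, with U13A control replicate C the lowest. The log2 fold change was 2.15 ± 0.36 (SE; adjusted p = 0.00369). The U13A control libraries held only 9, 10 and 4 counts of it, against 51, 67 and 56 in the mutants. With at least 10 counts required in every library, ptr-10 was not tested in this pair. It is the only member called in opposite directions in the pairs, and it shares 92 bp of exon with F55F8.8 on the opposite strand, whose reads could be counted with it if strand was not used.

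grd-10, a source of seam-cell reporters on chromosome IV at 3441055 to 3441841, had 22.0, 15.4 and 20.8 CPM in U13A mutants, against 11.6, 9.24 and 6.84 CPM in U13A controls. All mutant libraries were higher, and it rose by 1.08 ± 0.19 on the log2 scale (adjusted p = 0.00757). Without U13A control replicate B the log2 fold change was 1.10 and the adjusted p 0.0557. The other members of this tandem group had similar fold changes without passing: grd-13 was at 1.06 ± 0.32 (adjusted p = 0.107) and grd-3 at 1.07 ± 0.50 (adjusted p = 0.357). grd-3 had 33.6, 20.1 and 41.4 CPM in U13A mutants, against 23.2, 15.3 and 7.28 CPM in U13A controls, and those libraries overlapped.

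ptr-23 had 49.4, 48.5 and 52.4 CPM in U13A mutants, against 76.4, 72.5 and 58.3 CPM in U13A controls. The libraries did not overlap, and it fell by 0.47 ± 0.12 on the log2 scale (adjusted p = 0.0325). This call was lost without any 1 of U13A control replicates A and B and U13A mutant replicates A and B, with adjusted p of 0.0794, 0.146, 0.143 and 0.0918.

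The other falls were of genes with few footprints. grl-6, on chromosome X at 6449959 to 6450939, had 0, 0.285 and 0.462 CPM in U13A mutants, against 1.44, 1.05 and 0.883 CPM in U13A controls. A count of 0 in U13A mutant replicate A allows up to 3 counts, or 0.224 CPM. ptr-19, on chromosome III at 10781853 to 10791176, had 0.822, 0.606 and 0.346 CPM in U13A mutants, against 1.08, 1.62 and 1.47 CPM in U13A controls.

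Neither gene's libraries overlapped, and the log2 fold changes were -1.99 ± 0.53 for grl-6 and -1.29 ± 0.35 for ptr-19 (SE; adjusted p = 0.0447 and 0.0453). The grl-6 call was lost when any 1 library other than U13A mutant replicate C was left out, with adjusted p from 0.0577 to 0.147. The ptr-19 call was lost when any 1 library other than U13A control replicate A was left out, with adjusted p from 0.0685 to 0.191.

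The members that fell most in the U18A mutant had these values in the U13A pair. wrt-2 had 5.16, 5.70 and 8.83 CPM in U13A mutants, against 5.41, 3.405 and 4.78 CPM in U13A controls. wrt-1 had 9.49, 9.76 and 15.6 CPM in U13A mutants, against 10.3, 7.86 and 7.65 CPM in U13A controls. wrt-10 had 10.8, 10.55 and 17.9 CPM in U13A mutants, against 9.87, 7.46 and 7.65 CPM in U13A controls. U13A mutant replicate C was the highest library for all 3 genes, and wrt-10 alone of them did not overlap. Their log2 fold changes were 0.54, 0.44 and 0.66, and none passed (adjusted p = 0.237, 0.298 and 0.124).

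grl-15 had 9.64, 10.2 and 12.1 CPM in U13A mutants, against 10.8, 8.76 and 8.61 CPM in U13A controls. qua-1 had 33.0, 33.9 and 39.4 CPM in U13A mutants, against 33.1, 31.3 and 26.4 CPM in U13A controls. hog-1 had 3.29, 3.53 and 3.81 CPM in U13A mutants, against 3.37, 3.73 and 3.75 CPM in U13A controls. Mutant and control libraries overlapped for each of these, and none passed.

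ptc-1 had 129, 108 and 120.1 CPM in U13A mutants, against 111, 104 and 94.1 CPM in U13A controls. ptc-3 had 39.7, 43.4 and 51.8 CPM in U13A mutants, against 48.9, 52.04 and 43.0 CPM in U13A controls. The libraries overlapped for both Patched homologues, and neither passed (adjusted p = 0.376 and 0.76). grd-2 had 3.59, 3.92 and 4.04 CPM in U13A mutants, against 5.41, 4.54 and 4.93 CPM in U13A controls. grl-21 had 38.4, 35.7 and 49.9 CPM in U13A mutants, against 54.1, 34.3 and 30.5 CPM in U13A controls. grd-2 was lower in every mutant library without passing (adjusted p = 0.304), and grl-21 overlapped between the groups (adjusted p = 0.935).

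**Figure D3:**
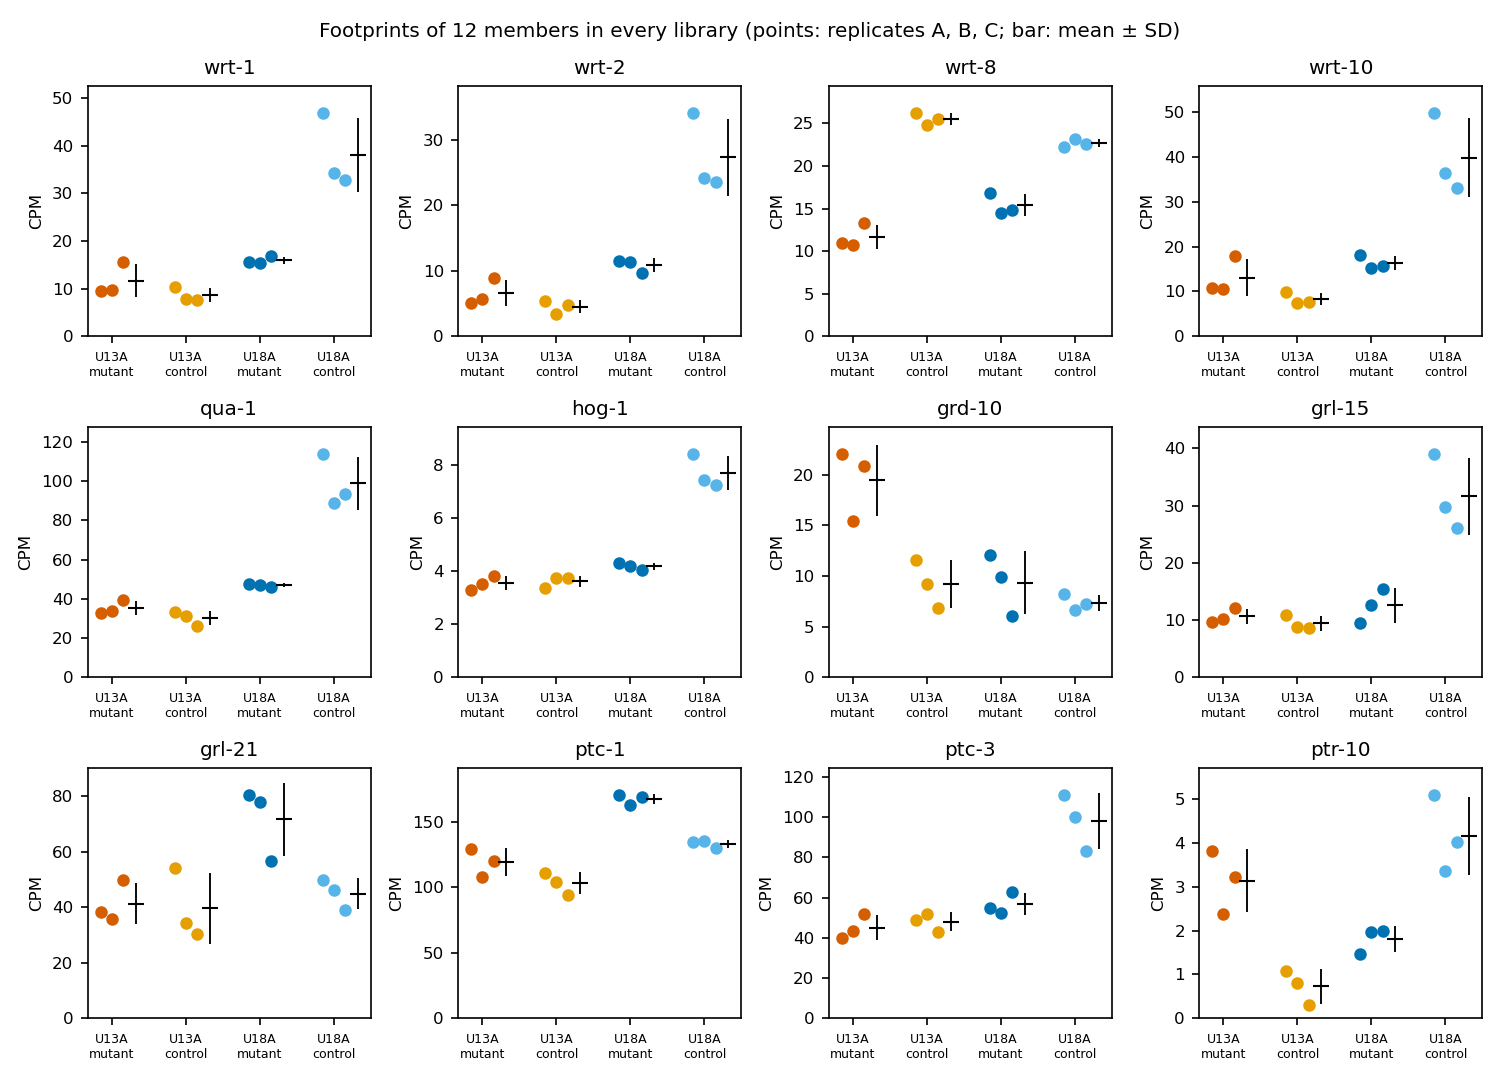
CPM of 12 members in every library, 1 panel per gene, with the U13A mutant, U13A control, U18A mutant and U18A control from left to right, points for replicates A, B and C and a bar for the mean and SD. wrt-1, wrt-2, wrt-10, qua-1, hog-1, grl-15 and ptc-3 are highest in the U18A control, wrt-8 is low in both mutants, and ptr-10 is high in the U13A mutant and the U18A control.

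The change in the U13A pair was then tested against the change in the U18A pair, as a contrast of the 4 group means in 1 fit of 12 libraries. Of 60 members tested, 17 had a more positive change in the U13A pair and 1 a more negative one. That is 28.3% and 1.67% of members, where 4.05% of all 13597 genes tested were higher and 1.53% lower. The median difference was 0.37 on the log2 scale for the members and -0.006 for all genes tested. In the same contrast 9 of 10 molting effectors had a more positive change in the U13A pair, with a median of 1.19, as did 3 of 7 genes that regulate the molting cycle. The part of the molt in the members' difference was not tested. The pairs differ in let-7 allele, lin-41 allele, background strain and table, which cannot be told apart.

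Among called members the difference was largest for ptr-10, at 3.29 ± 0.43 on the log2 scale (SE; adjusted p = 1.70e-04). This gene had only 9, 10 and 4 counts in U13A controls, and was not tested with at least 10 counts in every library. The next called were wrt-10 at 1.95 ± 0.31, wrt-2 at 1.89 ± 0.31, wrt-1 at 1.69 ± 0.28 and grl-15 at 1.49 ± 0.25. qua-1 differed by 1.31 ± 0.16 (adjusted p = 7.62e-05), hog-1 by 0.84 ± 0.20 (adjusted p = 0.0184) and ptc-3 by 0.70 ± 0.17 (adjusted p = 0.0193). By family, 5 of 9 warthogs, 3 of 13 ground-like genes, 6 of 21 ptr genes and 0 of 12 groundhogs were called with a more positive change. Among the groundhogs, grd-13 was at 1.75 ± 0.48 (adjusted p = 0.0548) and grd-1 at 0.80 ± 0.23 (adjusted p = 0.051). grd-13 passed with DESeq2, without robust estimation, and without any 1 of U13A mutant replicate B, U13A control replicate A and U18A control replicate C. grd-1 passed with DESeq2, with no filter on low counts, and without any 1 of U13A mutant replicate B, U18A mutant replicate A and U18A control replicate C. wrt-8 was the member with the more negative change in the U13A pair, at -0.57 ± 0.14 (adjusted p = 0.0255), and its adjusted p ran from 0.0503 to 0.0675 without any 1 of U13A mutant replicates A and B, U13A control replicate C, U18A mutant replicate A, and U18A control replicates A, B and C. ptc-3 was lost without any 1 of U13A control replicate C, U18A control replicate A, and U18A mutant replicates A and B, with adjusted p from 0.0516 to 0.0673.

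The control strains themselves differed in these genes. The U13A control was lower than the U18A control for 35 of 60 members and higher for 4, grd-4, grl-6, ptr-12 and ptr-13. That is 58.3% and 6.67% of members, where 13.4% of all 13597 genes tested were lower and 11.6% higher. ptr-12 had an adjusted p of 0.116 without U13A control replicate B and 0.0586 without U18A control replicate C. At equal depth it was 0.0585. Of the lower members, grd-5 missed the threshold in 9 of 20 alternatives, ptr-24 in 3 and ptr-23 in 1. The median log2 fold change, U13A control over U18A control, was -0.63 for the members and -0.003 for all genes tested. Strain and deposited table cannot be told apart in this comparison, and the same control libraries enter the comparisons above. In the same comparison 10 of 10 molting effectors were lower, with a median of -1.89, as were 5 of 7 genes that regulate the molting cycle and 3 of 7 epidermal markers. Of 6 germline markers 4 were higher and 1 was lower. The part of these in the members' gap was not tested.

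The largest of these gaps was grl-27, with 2.17, 3.65 and 1.77 CPM in U13A controls, against 33.1, 28.6 and 29.4 CPM in U18A controls. Its log2 fold change was -3.57 ± 0.25 (SE; adjusted p = 1.90e-07). wrt-4 had 43.0, 34.9 and 38.0 CPM in U13A controls, against 269, 231 and 217 CPM in U18A controls, a log2 fold change of -2.63 ± 0.12 (adjusted p = 8.75e-11). The controls were many times apart for both genes and overlapped for neither. wrt-2 at -2.60, wrt-6 at -2.59 and ptr-10 at -2.58 followed, the last with only 9, 10 and 4 counts in U13A controls. In the other direction the gap was largest for grl-6, with 1.44, 1.05 and 0.883 CPM in U13A controls, against 0.192, 0.243 and 0.0620 CPM in U18A controls (log2 fold change 2.62 ± 0.53, adjusted p = 0.00166). Its control libraries did not overlap in CPM, but the counts were only 12, 13 and 12 in U13A controls, against 4, 11 and 2 in the deeper U18A controls. At equal depth, or with at least 10 counts in every library, grl-6 was not tested in this comparison. ptr-13 followed, with 36.0, 28.4 and 23.02 CPM in U13A controls, against 9.09, 9.62 and 6.85 CPM in U18A controls (log2 fold change 1.76 ± 0.16).

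**Figure D4:**
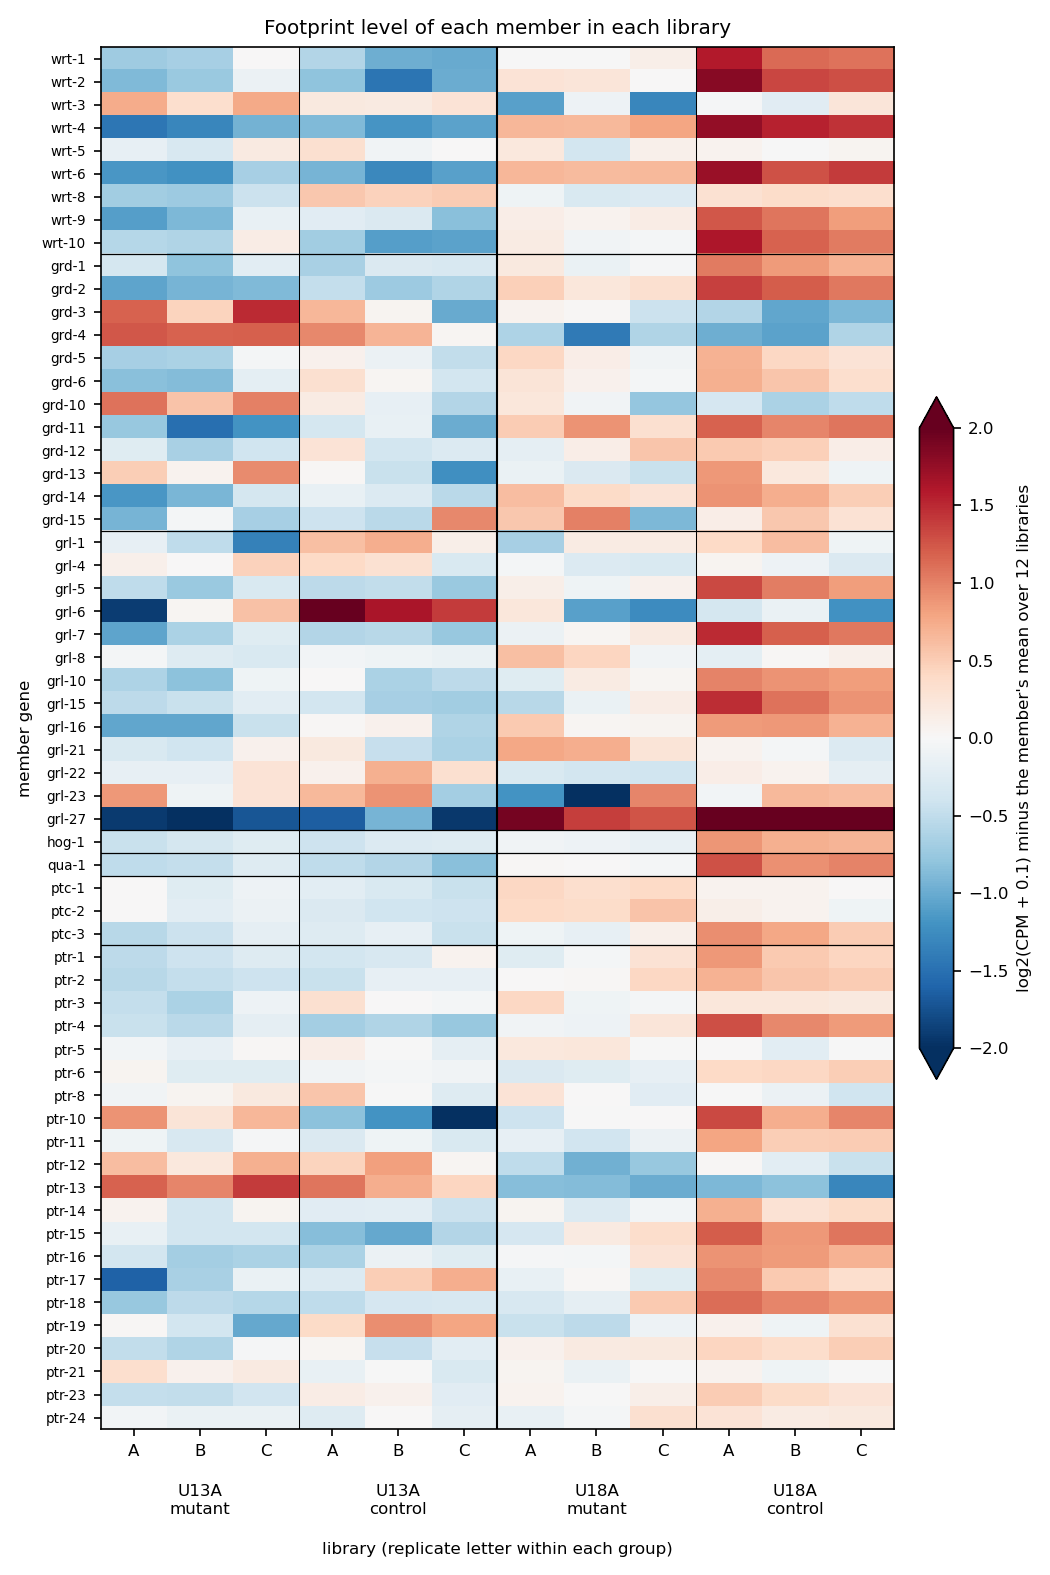
Level of each of 60 members in each of 12 libraries, as log2(CPM + 0.1) minus the member's mean over the 12 libraries, with members down the side by family and the U13A mutant, U13A control, U18A mutant and U18A control from left to right. The U18A control has the highest mean CPM for 38 of the 60 members, with ptr-13, grd-3 and grd-10 among the exceptions.

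Each member tested in a pair was also set against its own mean over the 6 libraries of that pair in log2 CPM, and the median over the members was taken in each library. It was -0.31, -0.34 and -0.29 in U18A mutants, against 0.39, 0.24 and 0.20 in U18A controls. It was -0.04, -0.14 and 0.19 in U13A mutants, against 0.08, 0.06 and -0.12 in U13A controls. The U18A libraries separated by group and the U13A libraries did not, with U13A mutant replicate C the highest of its pair.

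Genes of the molt fell beside the members in the U18A pair. A list of 10 molting effectors held matrix proteins, a protease, protease inhibitors, the endocytic receptor lrp-1 and other genes needed to molt, among them mlt-10, noah-1 and fbn-1. All 10 fell in the U18A mutant, with a median log2 fold change of -1.03, and in the U13A mutant 2 rose, noah-1 and fbn-1, with a median of 0.43. fbn-1 averaged 24.3 ± 5.85 CPM in the U13A mutant and 5.04 ± 1.73 CPM in the U13A control (SD, n = 3 each). Their median deviation was -0.48, -0.55 and -0.52 in U18A mutants, against 0.73, 0.43 and 0.30 in U18A controls. It was 0.18, -0.02 and 0.53 in U13A mutants, against -0.01, -0.19 and -0.49 in U13A controls. Of 7 transcription factors and timing genes of the molting cycle tested, 5 fell in the U18A mutant: nhr-25, grh-1, blmp-1, bed-3 and lin-42. There nhr-23 was at -0.06 and lin-29 at -0.33 on the log2 scale, and neither passed (adjusted p = 0.847 and 0.247). None of the 7 passed in the U13A mutant. The part of the animals' position in the molting cycle in the members' values was not tested.

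**Figure D5:**
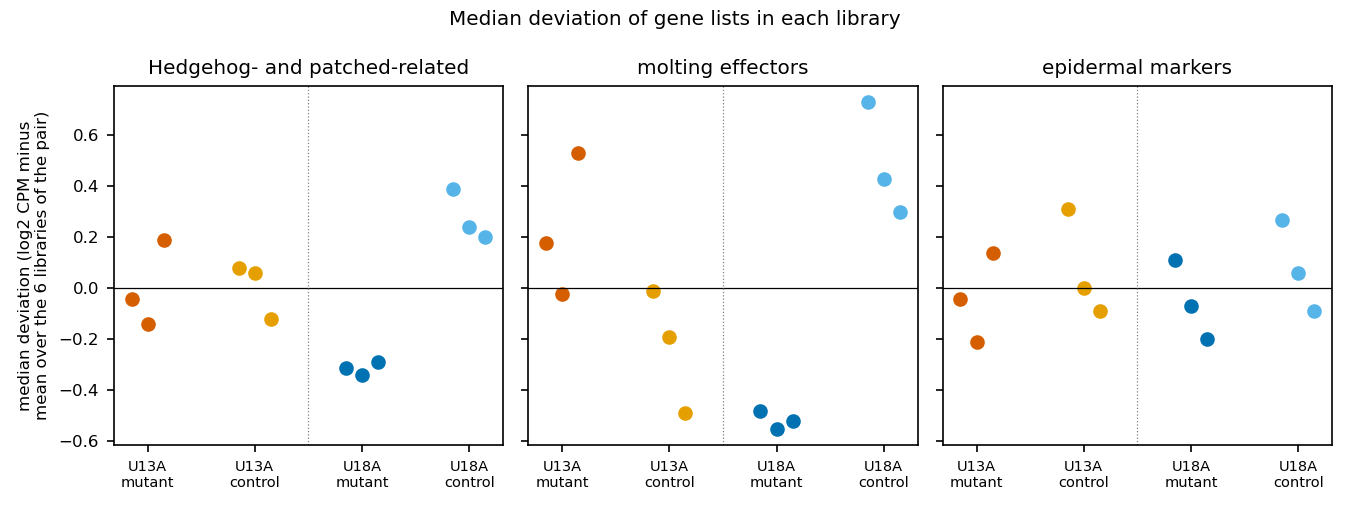
Median deviation of the Hedgehog-related and patched-related members, 10 molting effectors and 7 epidermal markers in each library, in log2 CPM minus each gene's mean over the 6 libraries of the pair, with each mutant left of its control and 1 point per library. Members and molting effectors are below 0 in all 3 U18A mutant libraries and above 0 in all 3 U18A controls, while the epidermal markers overlap between mutant and control in both pairs.

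The other tissue markers moved less. Of 7 epidermal markers tested in the U18A pair, 1 fell (bus-8), and the median log2 fold change was -0.10. Their median deviation was 0.11, -0.07 and -0.20 in U18A mutants, against 0.27, 0.06 and -0.09 in U18A controls, so the groups overlapped. The intestine, muscle and germline lists had 1 of 6 genes higher each (ifb-2, myo-2 and mex-5), and 0 of 6 neuronal markers passed. In the U13A pair none of the markers tested from these 5 lists passed. Of all genes tested, 4.11% were higher and 6.75% lower in the U18A pair, and 3.07% higher and 2.57% lower in the U13A pair. At such shares, 0 or 1 calls in a list of 6 or 7 genes cannot show that a tissue did not move.

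The rest of a Hedgehog pathway, as known from flies and vertebrates, was taken from a list. Of 7 genes tested for sterol sensing, release and acylation and the GLI homologue tra-1, 3 fell in the U18A mutant. These were che-14, a Dispatched-like gene, daf-6, a patched-related gene of glial tubes, and hhat-1, a predicted Hedgehog acyltransferase. che-14 had 2.15, 3.11 and 3.03 CPM in U18A mutants, against 8.04, 5.43 and 6.39 CPM in U18A controls (log2 fold change -1.20 ± 0.19, adjusted p = 9.34e-04). daf-6 and hhat-1 had log2 fold changes of -1.11 ± 0.22 and -0.90 ± 0.15. The libraries of che-14 did not overlap. None of the 7 passed in the U13A mutant, and 0 of 6 kinase and degradation genes of GLI processing and 0 of 4 heparan sulphate proteoglycan genes passed in either pair. Of all genes tested, 6.75% were lower and 4.11% higher in the U18A pair, and 2.57% lower and 3.07% higher in the U13A pair. At these shares, 0 calls in lists of 4 to 7 genes cannot show that the rest of the pathway was unchanged.

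By position, 23 of the 70 members lie on chromosome V, 12 on X, 11 on II, 10 on IV, 9 on I and 4 on III, and ptc-2 was not placed with them. Besides the groups already given, grd-14 lies 185 bp before grd-4 on X. grd-14 had one of the highest levels and grd-4 1.49, 1.43 and 1.44 CPM in U13A mutants, against 1.20, 0.973 and 0.588 CPM in U13A controls. Mutant libraries of grd-4 were all higher in that pair, but the log2 fold change of 0.70 ± 0.31 did not pass (adjusted p = 0.242).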

How the data were processed

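The authors deposited raw counts of footprint reads per gene in a pair of tables, each with 1 mutant and its control. The submitters' processing notes name cutadapt 1.9, Bowtie2 2.3.4.3 and the build WBcel235. The counting tool, whether strand was used and what was done with reads of several matches are not given in the sources used here. Members overlapping a gene on the opposite strand may therefore share its reads. Besides ptr-10, called members with such an overlap of exons include wrt-2 (43 bp), grl-15 (27 bp) and hog-1 (19 bp). They also include ptr-1 (49 bp), ptr-15 (30 bp) and grl-10 (18 bp). Coordinates and coding lengths are those of Ensembl 115 for WBcel235, and ptc-2 was looked up in RefSeq.

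Counts were tested in edgeR 4.0.16 under R 4.3.3, with filterByExpr at its defaults, TMM scaling and robust estimation, over all genes of a table or, for the difference and the controls, all 12 libraries. The standard error came from the F statistic. CPM used TMM over 12 libraries and log2 CPM a prior count of 2. Counting floors cover counting error only. The fits were tested on simulated counts.

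The members and lists were chosen with earlier results of these data known. Values in every library are given for members called in both pairs, for the largest change of each family and direction in each pair, for the 5 largest differences, and for qua-1, hog-1, ptc-1, ptc-3 and ptd-2. For grd-10, grl-6 and ptr-19, named by the U13A pair, the text does not give every U18A library. Further examples mostly follow the order of fold change. Genes named for a neighbour, a linked gene, a lost call or their level were chosen after their values were seen. Alternatives were DESeq2 1.42.0, other scalings and count filters, a replicate block, no robust estimation, 1 fit of 12 libraries, equal depth and leaving out each replicate. Member shares without grl-16 were added after seeing the data. No sequence was used here.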

Additional observations from a re-analysis of the deposited data

Results flagged for a closer look

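For 18 members the change in the U13A pair differed from that in the U18A pair by the test of the difference itself, in edgeR at an adjusted p under 0.05. Each value is the log2 change of the U13A mutant over its control minus that of the U18A mutant over its control.

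Among the secreted members the difference was 1.95 for wrt-10, 1.89 for wrt-2, 1.69 for wrt-1, 0.94 for wrt-6 and 0.71 for wrt-4. It was 1.49 for grl-15, 1.24 for grl-7, 1.10 for grl-5, 1.31 for qua-1 and 0.84 for hog-1. Among the receptor-like members it was 3.29 for ptr-10, 1.46 for ptr-15, 1.30 for ptr-4, 0.89 for ptr-11, 0.78 for ptr-14, 0.70 for ptc-3 and 0.59 for ptr-6. wrt-8 alone was more negative in the U13A pair, at -0.57.

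Several of these rested on the settings. The difference of ptr-6 missed the threshold in 14 of 20 alternatives, that of wrt-8 in 8, ptr-14 in 5, ptc-3 in 4 and ptr-15 in 2, and those of hog-1, wrt-4 and wrt-6 in 1 each. For ptr-6 these took in every left-out library but U13A mutant replicates B and C, with adjusted p from 0.056 to 0.107. ptr-14 was lost without any 1 of U13A mutant replicates A and C, U13A control replicate C, U18A mutant replicate B and U18A control replicate A (adjusted p from 0.0513 to 0.0766). ptr-15 was lost without U13A control replicate B (adjusted p = 0.0551) and wrt-4 without U18A mutant replicate B (adjusted p = 0.0504). At equal depth the adjusted p was 0.345 for ptr-15, 0.191 for hog-1 and 0.0541 for wrt-6. No group had enough samples to look for a single outlying library.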

How the results depend on the processing

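No member called in a comparison changed sign under any alternative that gave it a value. In the U18A pair 31 members were lower, against 30 at equal depth and 27 with all 12 libraries in 1 fit, where 2 rather than 4 were higher. Leaving out each library in turn gave 24 to 34 lower, with 24 without U18A mutant replicate B. The U13A counts were small and moved most. With at least 10 counts in every library, 1 member was higher and 2 were lower. Lower members numbered 2 without robust estimation and 2 at equal depth. With the replicate block 1 member was lower in the U13A pair, while the U18A pair had 4 higher and 34 lower and the difference between the pairs gained grd-13. Same-lettered libraries did not deviate together throughout, with correlations from -0.29 to 0.146, so the letters were not taken as pairs. Leaving out each library in turn gave 1 to 4 higher and 1 to 7 lower members in the U13A pair, with 4 higher without U13A control replicate A and 7 lower without U13A mutant replicate C.

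In the difference between the pairs, the 1 more negative member became 0 at equal depth, and 0 to 1 when a library was left out. The median difference of 0.37 ran from 0.29 to 0.52, the highest without U13A control replicate A. Between the controls, the 4 higher members became 2 with at least 10 counts in every library and 2 at equal depth. Except where a filter or a left-out library gave fewer genes or samples, the cause was not tested. Counts were too few to test ptd-2, with 1 to 12 per library, and the 18 members under 30 counts were not used. The part of depth in these low counts was not tested.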

Other observations

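Some members had a higher mean CPM in the U13A mutant than in any other group. The U13A mutant was not tested against the U18A groups, where strain and deposited table cannot be told apart. ptr-13 averaged 39.2 ± 5.74 CPM in the U13A mutant and 29.1 ± 6.51 CPM in the U13A control, and 9.10 ± 0.456 CPM in the U18A mutant and 8.52 ± 1.47 CPM in the U18A control (SD, n = 3 each). ptr-21, the ptr gene with the highest footprint density, averaged 77.9 ± 6.92 CPM in the U13A mutant and 60.9 ± 6.35 CPM in the U13A control, and 66.4 ± 4.22 CPM in the U18A mutant and 67.3 ± 3.37 CPM in the U18A control. In edgeR neither passed in a pair by the test used throughout (U13A pair, adjusted p = 0.176 for ptr-13 and 0.104 for ptr-21), while ptr-21 passed there with all 12 libraries in 1 fit and ptr-13 without U13A control replicate A. By group mean, 9 of the 60 members tested over all libraries were highest in the U13A mutant, 7 in the U13A control, 6 in the U18A mutant and 38 in the U18A control.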
